A study of Mus musculus with 4 samples.

Results

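The genes followed here are 8 genes of regulatory T cells: Foxp3, Il2ra, Ikzf2, Tnfrsf4, Tnfrsf18, Icos, Lrrc32 and Itgb8. They were chosen by symbol, and all 8 were found among the 32285 genes of the deposited matrices. The study sequenced single cells from liver metastatic tumours of MC38, a mouse colon carcinoma line, in C57BL/6J mice, after enrichment on beads for CD45, the leukocyte surface phosphatase encoded by Ptprc. Its question was how diet and a knockdown of Yap in the tumour line bear on the cells of the tumour. There were 4 libraries and no replicates. HFD_shYap came from mice on the high-fat diet with the shYap derivative of MC38, and HFD_WT from mice on the high-fat diet with the WT line. LFD_shYap came from mice on the low-fat diet with the shYap derivative, and LFD_WT from mice on the low-fat diet with the WT line. The mice themselves are labelled WT in all 4 libraries, so the knockdown is a property of the injected line and not of the T cells measured here. The number of mice per library, their age and the time on diet are not given in the labels.

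Regulatory T cells are CD4 T cells that restrain other immune cells, and Foxp3 encodes the transcription factor that defines them. Il2ra encodes CD25, the high-affinity subunit of the interleukin 2 receptor, through which these cells capture the growth factor made by other T cells. Ikzf2 encodes the transcription factor Helios, and Tnfrsf4, Tnfrsf18 and Icos encode the costimulatory receptors OX40, GITR and ICOS. Lrrc32 encodes GARP, which holds latent TGF-beta at the cell surface, and Itgb8 encodes an integrin subunit that pairs with the alpha v chain and releases active TGF-beta from that store. Activated conventional T cells can also carry CD25, OX40, GITR and ICOS, so Foxp3 is the member used here to split the T cells. Tumours commonly hold regulatory T cells with high levels of these costimulatory receptors.

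The files held 9582, 13870, 11831 and 14779 barcodes in HFD_shYap, HFD_WT, LFD_shYap and LFD_WT, with 106268471 to 144936859 unique molecular identifiers (UMIs) per library. Filtering left 37491 cells with a median of 6350 to 9722 UMIs. T lineage cells numbered 948, 1216, 685 and 683, and their median depth was 6018.5, 4545, 5010 and 4030 UMIs. Between 33 and 63 barcodes were shared by any pair of libraries, at most 0.459% of a library. The labels of LFD_shYap and HFD_shYap need care. For LFD_shYap the labels conflict over the diet, low-fat in the title but high-fat under treatment. It was placed by its title, which every diet value below takes over. Levels are given as CPM, which sets the UMIs of a gene against all UMIs of the class on a common scale, with exact Poisson 95% intervals. Yap1, the targeted gene, is not lower in the Ptprc-low cells of HFD_shYap: they had 21.8 CPM (18.4 to 25.8), against 16.8 (14.98 to 18.8) in HFD_WT. In the same cells LFD_shYap had 17.9 (16.1 to 19.95) and LFD_WT 20.7 CPM (18.7 to 22.9). Over all kept cells it was at 1.79 in HFD_shYap and 3.02 CPM in HFD_WT, and at 3.66 in LFD_shYap and 4.62 CPM in LFD_WT, where the Ptprc-low cells numbered 170, 811, 862 and 856. These cells, clusters 4 and 19, are fibroblast or stellate-like by their markers, with Col3a1, Dcn and Col1a2 among their leading genes, although Tm4sf1 and Lgals7 lead cluster 4. Whether they hold tumour cells was not tested, and T lineage cells held 0, 1, 2 and 1 Yap1 UMIs. HFD_shYap and LFD_shYap are therefore used below as names of the libraries so labelled. HFD_shYap also mixed T cells with Xist UMIs alone (330 cells) and T cells with Y-linked UMIs alone (330 cells), whereas the other libraries had 0 to 2 T cells with Xist UMIs. All intervals on single libraries cover counting error only.

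The members lie on 6 chromosomes (GRCm38, GENCODE bounds). Foxp3 (ENSMUSG00000039521) spans chrX:7573644-7595245 on the plus strand, Il2ra (ENSMUSG00000026770) chr2:11642807-11693193 on the plus strand, and Ikzf2 (ENSMUSG00000025997) chr1:69531214-69687245 on the minus strand. Icos (ENSMUSG00000026009) spans chr1:60977927-61000320 on the plus strand, Lrrc32 (ENSMUSG00000090958) chr7:98489283-98502181 on the plus strand, and Itgb8 (ENSMUSG00000025321) chr12:119158022-119238802 on the minus strand. The receptor genes Tnfrsf4 (ENSMUSG00000029075, chr4:156013843-156016612) and Tnfrsf18 (ENSMUSG00000041954, chr4:156026164-156028895) are neighbours on the plus strand, 9551 bases apart. Foxp3 overlaps Flicr on its own strand, and Il2ra, Ikzf2 and Icos overlap unnamed transcript models, so some reads could be divided between them.

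Promoter windows of 250 bases before to 50 bases after a transcript start were held by RefSeq for 5 of the 8 members (GRCm38.p6). Printed here are both Foxp3 windows, because Foxp3 splits the cells, the Tnfrsf18 window, because it shares a motif with Foxp3, and the Il2ra window, the gene of the interleukin 2 receptor, which has none of the motifs. All are on the plus strand, 5′ to 3′, and capitals mark the matched motif.
Foxp3 chrX:7579426-7579725: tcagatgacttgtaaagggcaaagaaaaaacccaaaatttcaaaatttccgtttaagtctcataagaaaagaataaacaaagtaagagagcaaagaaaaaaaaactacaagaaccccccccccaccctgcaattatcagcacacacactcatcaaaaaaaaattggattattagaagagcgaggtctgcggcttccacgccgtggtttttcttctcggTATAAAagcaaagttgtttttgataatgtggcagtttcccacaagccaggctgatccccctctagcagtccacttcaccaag
Foxp3 chrX:7580233-7580532: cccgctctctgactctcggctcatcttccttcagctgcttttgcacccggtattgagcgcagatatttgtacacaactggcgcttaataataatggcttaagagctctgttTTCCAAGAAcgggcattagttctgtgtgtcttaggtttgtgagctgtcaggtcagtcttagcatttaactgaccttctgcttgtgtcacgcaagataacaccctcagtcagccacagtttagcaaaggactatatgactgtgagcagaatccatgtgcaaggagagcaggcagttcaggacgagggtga
Tnfrsf18 chr4:156026072-156026371: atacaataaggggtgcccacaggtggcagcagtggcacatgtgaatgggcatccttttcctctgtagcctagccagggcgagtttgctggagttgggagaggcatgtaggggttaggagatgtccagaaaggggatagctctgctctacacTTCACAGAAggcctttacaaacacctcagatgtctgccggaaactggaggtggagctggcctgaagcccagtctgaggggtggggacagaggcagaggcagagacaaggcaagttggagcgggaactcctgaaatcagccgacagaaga
Il2ra chr2:11642542-11642841: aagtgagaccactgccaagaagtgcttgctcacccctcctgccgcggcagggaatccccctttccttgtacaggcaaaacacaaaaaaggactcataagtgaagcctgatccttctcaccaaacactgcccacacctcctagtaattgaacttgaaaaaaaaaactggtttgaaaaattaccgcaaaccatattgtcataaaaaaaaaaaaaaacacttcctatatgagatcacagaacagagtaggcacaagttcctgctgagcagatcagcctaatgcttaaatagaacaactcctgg
Of the motifs searched on both strands, TATAAA stood 32 bases before the first Foxp3 start, and is in 13.6% of all 32851 promoter windows of this length. The STAT-type motif TTCNNNGAA, a form bound by the factors that interleukin 2 activates, stood 139 bases before the second Foxp3 start and 99 bases before the Tnfrsf18 start, and is in 8.3% of all windows. The forkhead motif GTAAACA (3.65% of windows), the AP-1 motif TGANTCA (7.81%) and the Runx motif TGTGGTT (5.27%) were in none of the 6 member windows. A match describes these letters and is not shown to be a site.

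T lineage cells held most Foxp3 UMIs in every library, and a minority of those of Lrrc32 and Itgb8. They held 85.8%, 87.2%, 59.5% and 66.3% of all Foxp3 UMIs in HFD_shYap, HFD_WT, LFD_shYap and LFD_WT, out of 211, 156, 37 and 95 Foxp3 UMIs. For Tnfrsf4 the shares were 81.7%, 81.0%, 84.4% and 72.4%, above those of Foxp3 in both low-fat libraries, and for Lrrc32 they were 42.9%, 35.0%, 24.2% and 31.3%. In the T lineage Foxp3 averaged 17.7 ± 9.1 CPM (SD over 4 libraries), Il2ra 36.7 ± 16.1, Ikzf2 359 ± 43.2, Tnfrsf4 258 ± 59.2, Tnfrsf18 285 ± 39.0, Icos 131 ± 54.8, Lrrc32 8.63 ± 3.53 and Itgb8 8.12 ± 4.16 CPM. These are levels of each gene over cell types and are not compared between genes.

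**Figure D1:**
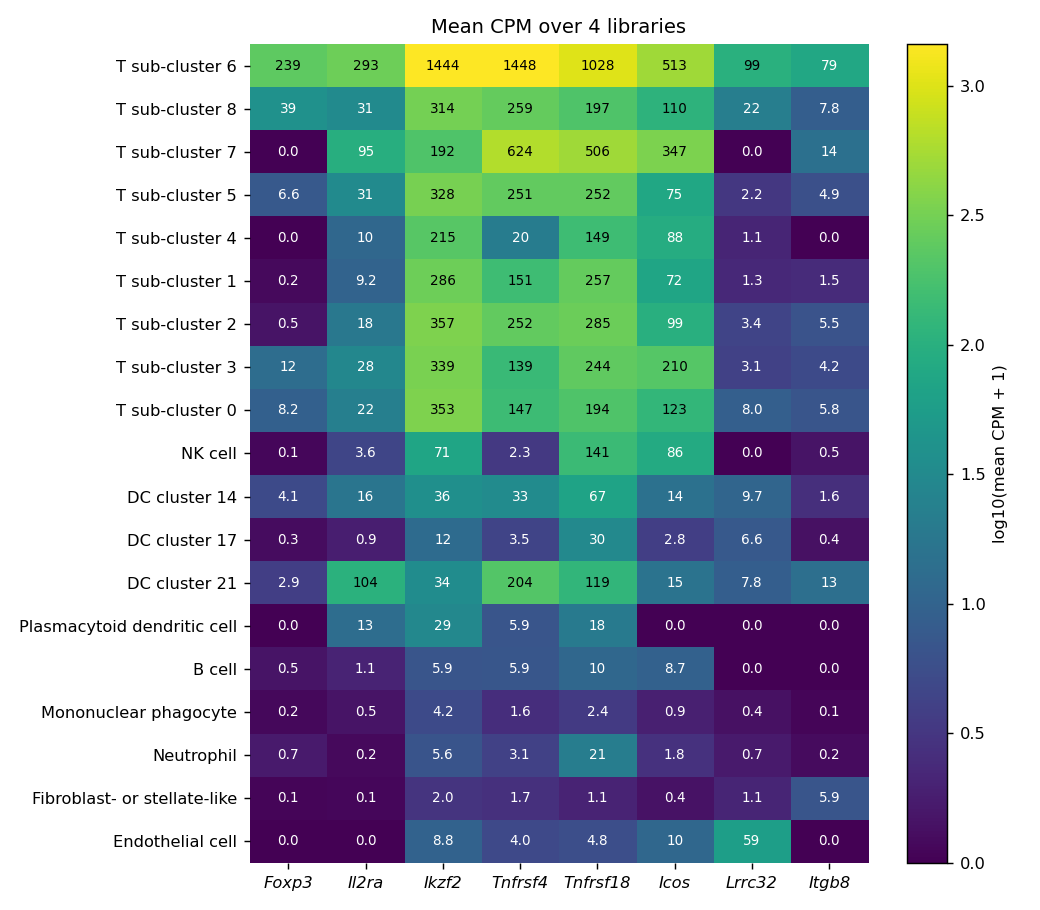
Mean CPM over the 4 libraries of each member gene (columns) in 9 T sub-clusters and in the other cell types (rows), with colour on a log10 scale of mean CPM + 1. Sub-cluster 6 has the highest mean of all 8 genes among the T sub-clusters, and outside the T lineage Lrrc32 is highest in endothelial cells and Il2ra in dendritic cells.

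Among the T sub-clusters, which were made with the 8 members left out of the clustering genes, sub-cluster 6 (regulatory-like, 261 cells) had the highest mean of every member. Its means were 239 ± 90.8 CPM for Foxp3, 293 ± 106 for Il2ra, 1444 ± 357 for Ikzf2, 1448 ± 316 for Tnfrsf4, 1028 ± 178 for Tnfrsf18, 513 ± 122 for Icos, 99.3 ± 41.6 for Lrrc32 and 78.7 ± 34.0 for Itgb8 (SD, n = 4 libraries). The cells were clustered on genes that vary with the members, so this order is a description. All 5 T lineage markers were detected in it in every library, and of 6 regulatory markers Gpr83 was at 0 in LFD_shYap and LFD_WT. Sub-cluster 7 (251 cells), which is led by Tnfsf11, Ccl1, Tnfsf8, Csf2, Cd4 and Il2, had 0 Foxp3 UMIs and 0 Lrrc32 UMIs but followed sub-cluster 6 in the 3 costimulatory receptors. It had 624 ± 218 CPM of Tnfrsf4, 506 ± 103 of Tnfrsf18 and 347 ± 69.3 of Icos. For 0 of 251 cells the exact 95% upper bound is 1.46% of cells with a detected Foxp3 UMI. It does not bound the share of cells that express the gene. The naive or memory-like sub-cluster 4 (338 cells) also had 0 Foxp3 UMIs, and its Tnfrsf4 was 20.4 ± 11.9 CPM, the lowest of the T sub-clusters.

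Each member was then compared between the T lineage and 6 other cell types, with counts summed per library and cell type and the library kept as a block. All 8 members were higher in the T lineage than in mononuclear phagocytes (log2 fold changes 4.52 to 7.41) and all 8 were higher than in neutrophils (edgeR quasi-likelihood test, adjusted p of 1.09e-10 or less for phagocytes and 0.000732 or less for neutrophils). Of all 12645 genes tested, 65.6% were called against phagocytes (37.7% as higher in the T lineage) and 64.9% against neutrophils (35.4% as higher). Against NK cells, cytotoxic lymphocytes related to T cells, 7 members were called higher, where 12.9% of all genes were called and 7.98% as higher. Tnfrsf4 separated those lineages most clearly among members with more than 3 NK cell UMIs, with a log2 fold change of 6.18 (SE 0.37, adjusted p = 8.45e-14). Tnfrsf18 was higher in the T lineage by only 0.96 (SE 0.17, adjusted p = 0.000123), and Icos did not pass at 0.53 (SE 0.21, adjusted p = 0.0962), except with no expression filter (0.51, adjusted p = 0.0203). NK cells had 141 ± 19.5 CPM of Tnfrsf18 and 85.7 ± 40.9 CPM of Icos, and held 6.10%, 2.40%, 18.4% and 35.7% of all Icos UMIs in HFD_shYap, HFD_WT, LFD_shYap and LFD_WT. Foxp3 had 402 UMIs in the T lineage and 2 in NK cells, and Lrrc32 had 192 in the T lineage and 0 in NK cells. Against B cells all 8 were called higher, where 22.2% of all genes were called and 14.4% as higher. B cells held 0 UMIs of Lrrc32 and of Itgb8, and their calls were lost without HFD_WT (Lrrc32, adjusted p = 0.0817) and without HFD_shYap (Itgb8, adjusted p = 0.059). With DESeq2 size factors the all-gene median of the T lineage moved from 0.17 to -0.09 on the log2 scale against B cells, and the share of calls that were higher from 64.9% to 41.7%. Against NK cells that share moved from 62.1% to 48.2%, and against phagocytes and neutrophils the median from 0.16 to 0.04 and from 0.16 to -0.07. The members kept their directions in these comparisons with DESeq2.

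Dendritic cells and the Ptprc-low cells of clusters 4 and 19 had single members at levels near those of the T lineage. Lrrc32 in endothelial cells, which were too few to be included in the test, lay above its T lineage level. Against dendritic cells 7 members were higher in the T lineage (52.3% of all genes were called and 28.8% as higher), with Ikzf2 at a log2 fold change of 3.62 and Il2ra at only 0.75 (SE 0.21, adjusted p = 0.00344, edgeR quasi-likelihood test). The Il2ra call was lost with DESeq2 (0.68, adjusted p = 0.159), without the library block (0.69, adjusted p = 0.0568), with doublets kept (0.46, adjusted p = 0.0736) and without HFD_shYap (0.58, adjusted p = 0.0807). Lrrc32 did not differ there past the threshold (-0.12, SE 0.36, adjusted p = 0.807), with 8.63 ± 3.53 CPM in the T lineage and 8.18 ± 1.55 in dendritic cells. Cluster 21, dendritic cells led by Ccl22, Il12b, Ccr7 and Fscn1, had 104 ± 43.6 CPM of Il2ra and 204 ± 52.7 of Tnfrsf4. Dendritic cells held 24.6%, 30.7%, 23.6% and 30.6% of all Il2ra UMIs in HFD_shYap, HFD_WT, LFD_shYap and LFD_WT. The 80 endothelial cells had 58.6 ± 34.2 CPM of Lrrc32 from 43 UMIs, a level between those of the whole T lineage and of sub-cluster 6. Against those Ptprc-low, fibroblast or stellate-like cells, the ones in which Yap1 was measured, 7 members were higher (72.1% of all genes were called and 35.7% as higher), and Itgb8 did not pass (0.36, SE 0.26, adjusted p = 0.221), with 8.12 ± 4.16 CPM in the T lineage and 5.89 ± 2.57 in those cells.

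Some Foxp3 UMIs fell outside the T lineage. Dendritic cluster 14, led by Ccl17, Cd209a and Mgl2, had 34 Foxp3 UMIs in 19 of 920 cells, and 16 of these 19 cells (84.2%) also held a UMI of Cd3 or Trac genes. Among the other 901 cells of that cluster 104 (11.5%) did. In phagocytes 40 of 22187 cells had a Foxp3 UMI, and 27.5% of the 40 held a T cell receptor complex UMI, against 7.22% of the other phagocytes. Whether these barcodes hold a T cell beside another cell was not tested.

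T lineage cells with a Foxp3 UMI (Foxp3-positive cells) were most frequent in HFD_shYap and least frequent in LFD_shYap. They were 75 of 948 T lineage cells in HFD_shYap (7.91%, exact Clopper-Pearson 95% interval 6.27 to 9.82) and 67 of 1216 in HFD_WT (5.51%, 4.295 to 6.94). In LFD_shYap they were 16 of 685 (2.34%, 1.34 to 3.77) and in LFD_WT 38 of 683 (5.56%, 3.97 to 7.56). HFD_WT and LFD_WT lay together, the interval of HFD_shYap overlaps both, and that of LFD_shYap lies below all the others. NK cells, which should lack the gene, had a Foxp3 UMI in 0 of 72, 0 of 90, 0 of 165 and 1 of 320 cells, and phagocytes in 0.340%, 0.131%, 0.0708% and 0.216% of cells at median depths of 11686, 10088, 9528 and 7783 UMIs. Every T lineage share was above these. When each T cell was thinned to 2000 UMIs, which left out 140, 244, 122 and 168 shallower cells, the shares were 4.58% (3.24 to 6.26), 3.40% (2.35 to 4.74), 1.42% (0.615 to 2.78) and 2.72% (1.49 to 4.52) in HFD_shYap, HFD_WT, LFD_shYap and LFD_WT.

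**Figure D2:**
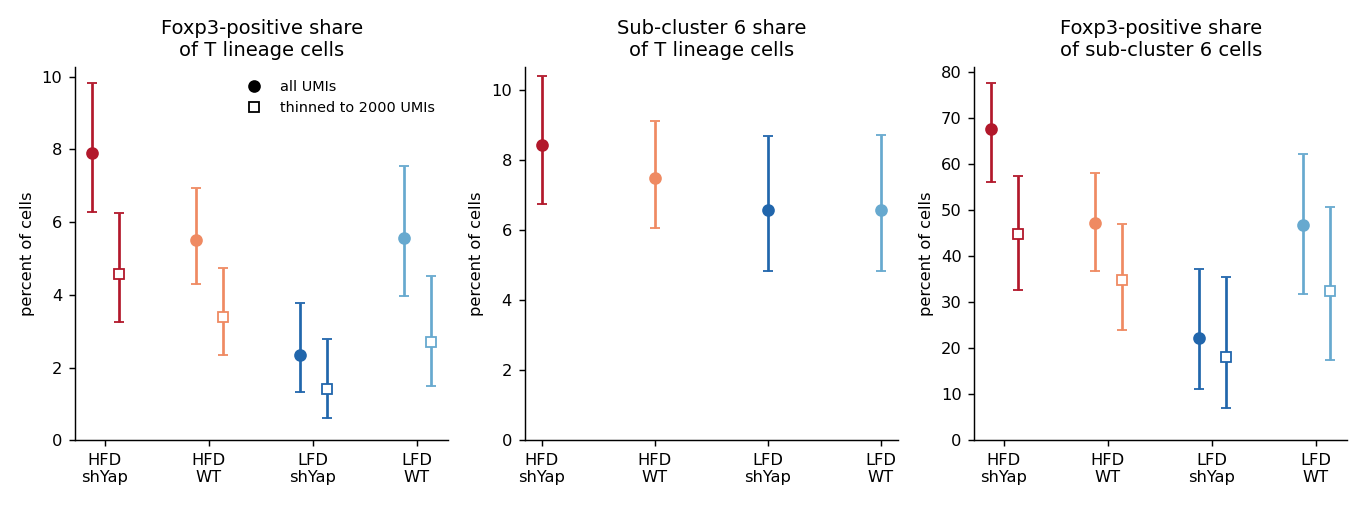
Shares in percent for each of the 4 libraries: Foxp3-positive cells among T lineage cells (filled circles, all UMIs; open squares, thinned to 2000 UMIs), sub-cluster 6 among T lineage cells, and Foxp3-positive cells within sub-cluster 6. Bars are exact 95% intervals; LFD_shYap is lowest in the left and right panels (2.34% and 22.2%), while the sub-cluster 6 shares run from 6.57% to 8.44%.

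The level of Foxp3 in the positive cells varied less than their share. That level has a floor, since a positive cell holds at least 1 Foxp3 UMI by its definition. A positive cell held on average 2.41 ± 1.59 Foxp3 UMIs in HFD_shYap, 2.03 ± 1.46 in HFD_WT, 1.38 ± 0.62 in LFD_shYap and 1.66 ± 1.02 in LFD_WT (SD over cells). A single UMI was all that 30, 34, 11 and 22 of these cells had. The depth of the positive cells differed as well, with medians of 6059, 4258, 3191.5 and 3081 UMIs. In CPM the order changed: the positive cells had 294 CPM (253 to 340) in HFD_shYap, 336 (282 to 397) in HFD_WT, 247 (155 to 374) in LFD_shYap and 355 (273 to 454) in LFD_WT, and all of these intervals overlap. Thinned to 2000 UMIs, a positive cell held 1.65, 1.45, 1.13 and 1.5 Foxp3 UMIs. A cell with less Foxp3 RNA is also counted as positive less often, so at this depth the share and the level are not free of each other.

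The pairs of libraries show how far the share and the level each went. On the high-fat against the low-fat diet the share differed by 5.58 percentage points between HFD_shYap and LFD_shYap (Newcombe 95% interval 3.47 to 7.67, and 3.16, 1.32 to 4.97, after thinning), and by -0.05 points between HFD_WT and LFD_WT (-2.34 to 2.01). As log2 ratios, the share differed by 1.76 in the shYap pair and -0.01 in the WT pair, while the CPM within positive cells differed by 0.25 (-0.39 to 0.96) and -0.08 (-0.52 to 0.37). That share is not adjusted for depth and CPM is, so these values do not add to a total. At 2000 UMIs per cell the share differed by 1.69 in the shYap pair and 0.32 in the WT pair. The level there differed by 0.55 (-0.47 to 1.75) and -0.04 (-0.81 to 0.77). A positive cell holds at least 1 Foxp3 UMI by its definition, and 97 of 196 hold 1, so the level within positive cells has a floor. Inside sub-cluster 6, made without Foxp3, Foxp3 CPM differed by 1.53 (0.78 to 2.38) in the shYap pair and -0.18 (-0.76 to 0.44) in the WT pair. The share of sub-cluster 6 itself differed there by 1.87 points (-0.78 to 4.40) and 0.90 points (-1.61 to 3.19). By its treatment label LFD_shYap would share the diet of HFD_shYap. Between tumour lines, HFD_shYap exceeded HFD_WT by 2.40 points (0.29 to 4.62) before thinning and by 1.18 points (-0.64 to 3.11) after it. LFD_shYap fell below LFD_WT by 3.23 points (difference -3.23, -5.40 to -1.17), and by 1.30 points after thinning (-1.30, -3.22 to 0.45). The CPM within positive cells differed by -0.19 (-0.52 to 0.14) and -0.52 (-1.29 to 0.20) on the log2 scale in these pairs. Each pair is 1 library against 1, so no test was made.

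**Figure D3:**
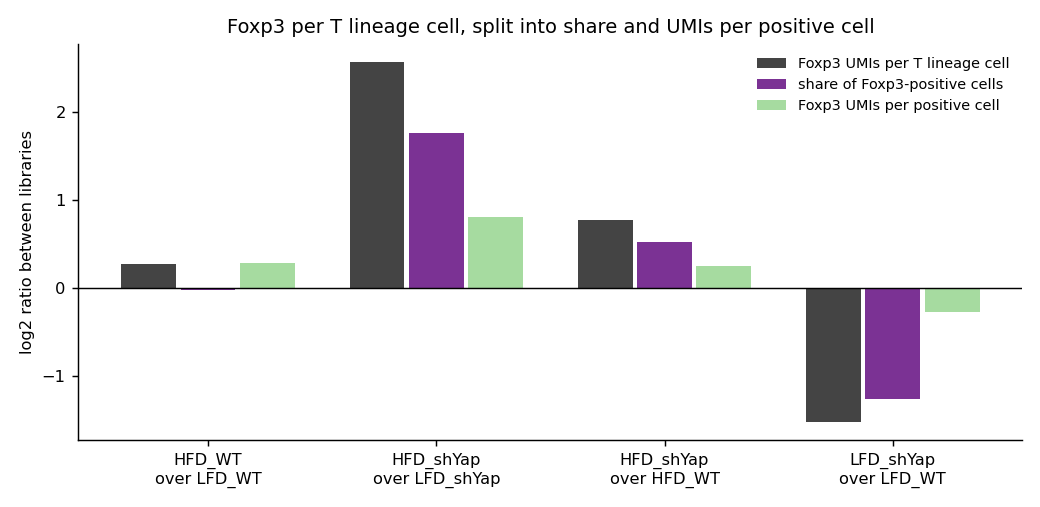
Log2 ratios of Foxp3 for 4 pairs of libraries, in 3 bars each: UMIs per T lineage cell, the share of Foxp3-positive cells, and Foxp3 UMIs per positive cell. The first bar is the sum of the others: in HFD_shYap over LFD_shYap 2.57 is made of 1.76 for the share and 0.81 for UMIs per positive cell. All UMIs were used, so depth enters these bars. Thinned to 2000 UMIs per cell, 2.24 is made of 1.69 and 0.55 in that pair.

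Within HFD_shYap the share also differed between its sex-linked groups of T cells. Of the T cells with Y-linked UMIs alone 37 of 330 were Foxp3-positive (11.2%, 8.02 to 15.1), against 15 of 330 of those with Xist UMIs alone (4.55%, 2.57 to 7.39), at median depths of 7107.5 and 5698.5 UMIs. Among T cells with Y-linked UMIs alone the shares elsewhere were 5.55% in HFD_WT, 2.43% in LFD_shYap and 6.86% in LFD_WT. Its part in the HFD_shYap values was not tested.

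Foxp3-positive cells were found where CD4 T cells were. Of T cells with a Cd4 UMI and no Cd8 UMI, 40 of 167 were Foxp3-positive in HFD_shYap (24.0%), 23 of 111 in HFD_WT (20.7%), 2 of 27 in LFD_shYap (7.41%) and 12 of 48 in LFD_WT (25.0%). Over all libraries this was 77 of 353 (21.8%), against 15 of 2155 T cells with Cd8 and no Cd4 UMIs (0.696%). Cd4 is thinly detected: 49.5% of the positive cells had neither a Cd4 nor a Cd8 UMI. By sub-cluster, 128 of the 261 cells of sub-cluster 6 were positive (49.0%), and they made up 65.3% of all positive cells. Sub-cluster 8 came next with 29 of 122 (23.8%). It is led by Chil3, H2-Ab1, Cd74 and Il1b, genes of myeloid cells, has a median depth of 11292 UMIs, and its summed level of 8 phagocyte markers was 13035, 10126, 10140 and 6786 CPM, so it stays unnamed. The cycling-like sub-cluster 5 had 12 of 318 (3.77%), the interferon-gene sub-cluster 3 (Ifit1, Ifit3, Cxcl10) 8 of 349 (2.29%), and sub-clusters 1 and 2, led by Cxcr6 and Ccl5 and by Gzmf and Gzmd, had 1 of 613 and 1 of 417.

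The regulatory-like sub-cluster, defined without Foxp3, gives a second view of share and level. It held 80 of 948 T cells in HFD_shYap (8.44%, 6.75 to 10.4), 91 of 1216 in HFD_WT (7.48%, 6.07 to 9.11), 45 of 685 in LFD_shYap (6.57%, 4.83 to 8.69) and 45 of 683 in LFD_WT (6.59%, 4.85 to 8.72). These intervals overlap throughout. They are a description, since genes that shaped the sub-cluster, such as Klrg1 (161, 139, 34.9 and 71.2 CPM in it), differed between libraries. Inside it, 54 of 80 cells had a Foxp3 UMI in HFD_shYap (67.5%, 56.1 to 77.6), 43 of 91 in HFD_WT (47.3%, 36.7 to 58.0), 10 of 45 in LFD_shYap (22.2%, 11.2 to 37.1) and 21 of 45 in LFD_WT (46.7%, 31.7 to 62.1). HFD_shYap was highest and LFD_shYap lowest, and HFD_WT and LFD_WT lay side by side between them. Median depths followed part of this order, at 4176, 3487, 2915 and 2597 UMIs; thinned to 2000 UMIs the shares were 44.8%, 34.7%, 18.2% and 32.4%. The difference of HFD_shYap over LFD_shYap was 45.3 points (27.5 to 58.7) and 26.6 (6.84 to 41.8) after thinning. HFD_shYap over HFD_WT was 20.2 points (5.38 to 33.8) and 10.1 (-6.08 to 25.6) after thinning.

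Inside sub-cluster 6, Foxp3, Il2ra, Ikzf2, Tnfrsf18, Lrrc32 and Itgb8 were lowest in LFD_shYap, and Tnfrsf4 and Icos were not. How many of all genes share that order was not counted, so it is a description. In LFD_shYap the values of Foxp3, Lrrc32 and Itgb8 rest on 16, 7 and 4 UMIs. Foxp3 itself had 323, 245, 112 and 277 CPM in HFD_shYap, HFD_WT, LFD_shYap and LFD_WT. Il2ra had 436, 263, 182 and 293 CPM and Ikzf2 1752, 1546, 929 and 1550 CPM. The TGF-beta members had few UMIs there, at 103, 150, 48.9 and 94.9 CPM for Lrrc32 and 100, 91.5, 27.9 and 94.9 CPM for Itgb8. Tnfrsf18 had 969, 1236, 817 and 1092 CPM and was highest in HFD_WT, as was Tnfrsf4, with 1238, 1912, 1383 and 1258 CPM. Icos had 590, 620, 496 and 348 CPM, and Ctla4, the checkpoint receptor that regulatory T cells carry at high level, 1182, 906, 824 and 490, both lowest in LFD_WT. The 133 cells of the sub-cluster without a Foxp3 UMI still had 258 ± 78.2 CPM of Il2ra, 1475 ± 556 of Ikzf2 and 117 ± 53.2 of Lrrc32 (SD, n = 4). The summed level of 8 phagocyte markers, none at 0, was 1324, 2333, 2277 and 4952 CPM over the sub-cluster and was highest in LFD_WT; its part in these levels was not tested. With sub-cluster 6 alone, edgeR's quasi-likelihood test called 0 of 3493 genes for diet and 0 for tumour line at an adjusted p of 0.05 (241 and 175 at an unadjusted p under 0.05).

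All 7 other members were higher in Foxp3-positive than in Foxp3-negative T lineage cells, in 4 of 4 libraries each. The edgeR quasi-likelihood test, with the library as a block, called 7 of 7, while of all 9811 genes tested 15.5% were called, 7.69% as higher and 7.83% as lower, and 18.5% of all genes were higher in each of the 4 libraries. The members' median log2 fold change was 2.18 and that of all genes -0.06. Foxp3 itself chose the cells and is not tested here. This fit has 3 residual degrees of freedom and also takes part of its spread from other genes.

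**Figure D4:**
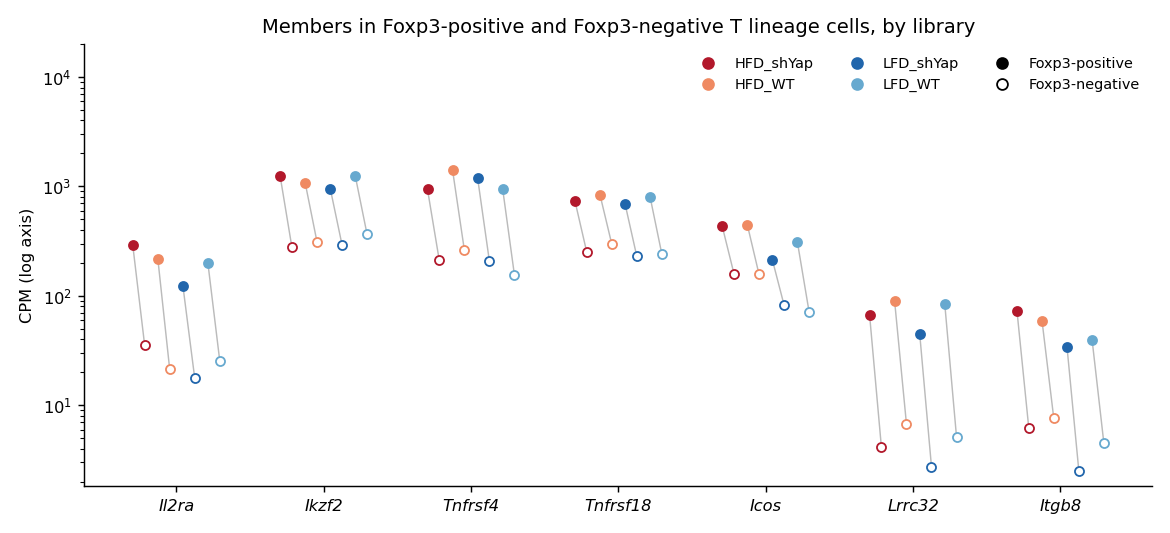
CPM on a log axis of the 7 other members in Foxp3-positive (filled) and Foxp3-negative (open) T lineage cells, 1 point per library. In every library and for every member the filled point lies above the open point; the Lrrc32 and Itgb8 gaps are widest, at log2 fold changes of 3.68 and 3.08.

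The TGF-beta members differed most. Lrrc32 had 66.6, 88.9, 45.0 and 84.6 CPM in the positive cells of HFD_shYap, HFD_WT, LFD_shYap and LFD_WT, against 4.16, 6.77, 2.74 and 5.12 CPM in the negative cells. Its log2 fold change was 3.68 (SE 0.29, adjusted p = 3.82e-34, edgeR quasi-likelihood test). The positive cells held 61.2%, 46.2%, 25.0% and 48.4% of the T lineage's Lrrc32 UMIs, while they held 8.98%, 6.13%, 1.99% and 5.37% of all its UMIs. Itgb8 had 73.1, 59.3, 33.7 and 39.5 CPM in positive cells, against 6.24, 7.58, 2.51 and 4.48 CPM in negative cells, a log2 fold change of 3.08 (SE 0.31, adjusted p = 1.22e-21). The LFD_shYap values rest on 4 Lrrc32 and 3 Itgb8 UMIs.

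Il2ra, the interleukin 2 receptor subunit, had 289, 217, 124 and 197 CPM in positive cells, against 35.9, 21.6, 17.8 and 25.6 CPM in negative cells, and rose by 2.86 (SE 0.17, adjusted p = 1.36e-63, edgeR quasi-likelihood test). The groups lie far apart. Ikzf2, the Helios gene, had 1240, 1074, 955 and 1240 CPM in positive cells, against 277, 312, 292 and 364 CPM in negative cells, a log2 fold change of 1.64 (SE 0.10, adjusted p = 1.28e-54). Among the costimulatory receptors, Tnfrsf4 had 937, 1405, 1191 and 947 CPM in positive cells and 210, 262, 207 and 154 CPM in negative cells, and rose by 2.18 (SE 0.11, adjusted p = 2.77e-89). Tnfrsf18 had 740, 842, 697 and 806 CPM in positive and 253, 299, 230 and 241 CPM in negative cells (1.36, SE 0.11, adjusted p = 1.13e-32). Icos had 432, 447, 214 and 310 CPM in positive and 159, 157, 82.0 and 70.7 CPM in negative cells (1.38, SE 0.13, adjusted p = 1.96e-22). None of these groups overlap, and the closest in ratio are those of Icos, with 214 CPM in the lowest positive and 159 CPM in the highest negative library.

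Markers of other cells moved with this split. The summed level of 8 phagocyte markers was 4385, 5530, 3394 and 5638 CPM in positive cells and 1716, 2558, 2221 and 3445 CPM in negative cells, with none of the 8 at 0 in either class. The 5 NK cell markers summed to 39.0, 34.6, 45.0 and 22.6 CPM in positive and 305, 335, 226 and 253 CPM in negative cells, with Klrb1c at 0 in all positive and none at 0 in negative cells. Without sub-clusters 0 and 8, whose leading genes include those of macrophages, all 7 members were still called, at log2 fold changes of 1.60 to 4.13. Among T cells with Cd4 and without Cd8 UMIs the split is closer to regulatory against other CD4 cells. There Il2ra (1.90), Ikzf2 (1.504), Tnfrsf18 (0.86) and Tnfrsf4 (0.76) were called, Icos (0.18, adjusted p = 0.898) and Lrrc32 (1.17, adjusted p = 0.269, edgeR quasi-likelihood test) were not, and Itgb8 was too low to be tested. The counts of all genes called in both of these settings are given in the closing section, beside which the member calls should be read. The share of the genes tested is not given for these settings, so the member calls in them are a description. At a fixed 2000 UMIs per cell, at least 3 of the 7 other members were detected in 36 of 37 positive cells in HFD_shYap (97.3%), 28 of 33 in HFD_WT (84.8%), 7 of 8 in LFD_shYap (87.5%) and 12 of 14 in LFD_WT (85.7%). The same held for 15.8%, 16.1%, 11.7% and 9.38% of negative cells.

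Of 62 further genes in 6 lists of the same biology, the suppressor and homing genes had the most calls between Foxp3-positive and Foxp3-negative cells. In that list 14 of 21 tested genes rose and 3 fell, with a median of 1.63 beside -0.06 for all genes. The surface receptors Klrg1 (log2 fold change 4.15), Izumo1r (2.91), Il1rl1 (2.54, the receptor of interleukin 33) and Itgae (2.19) rose. So did the cytokine genes Il10 (2.99), Ebi3 (2.56) and Areg (1.82), the ectoenzymes Entpd1 (0.61) and Nt5e (1.09), and the chemokine receptors Ccr6 (2.93), Ccr4 (2.26), Cxcr3 (1.66), Ccr8 (1.63) and Ccr7 (1.38). Tcf7 (-3.01), Lag3 (-1.61) and Gzmb (-0.44) fell. Without sub-clusters 0 and 8 the list had 13 higher and 2 lower calls, and Entpd1 (0.57, adjusted p = 0.18) and Gzmb (-0.31, adjusted p = 0.219, edgeR) were no longer called. The share of all genes called in that setting is not given. Among transcription regulators 6 of 12 rose and 2 fell (median 0.34). Ikzf4, a relative of Helios, rose by 2.27, Maf by 1.83, Gata3 by 1.35, Runx1 by 1.08, Prdm1 by 0.91 and Batf by 0.56, while Satb1 (-2.58) and Tbx21 (-1.32), the factor of type 1 T cells, fell.

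The interleukin 2 axis changed in few genes. Cish (1.04) and Socs2 (1.84), feedback inhibitors of cytokine signalling, rose, and Il2rb, the shared receptor beta chain, fell by 0.60, of 8 tested (median 0.33). Il2 itself did not pass (-1.94, adjusted p = 0.174, edgeR quasi-likelihood test). Of the TNF receptor axis Tnfrsf9 (0.62) and the adaptor Traf1 (1.31) rose, of 4 tested (median 0.44). Of the ICOS and CD28 family Ctla4 rose by 2.002 (SE 0.12), of 4 tested (median 0.78). Of the TGF-beta axis Itgav, the partner chain of Itgb8, rose by 0.998 and Tgfbr2, a receptor chain, fell by 0.81, of 6 tested (median 0.19). Within T cells with Cd4 and without Cd8 UMIs 9 of these lists' genes were called: Ikzf4, Tnfrsf9, Ctla4, Itgav, Gzmb, Klrg1, Izumo1r and Ccr7 as higher and Satb1 as lower. The share of all genes called among these cells is not given, so this count is a description. Gzmb was lower in positive cells over the whole T lineage (-0.44) and higher among these (1.05, adjusted p = 0.0321, edgeR).

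Among genes of at least 20 CPM in the higher class that moved the same way in all 4 libraries, the widest differences included 3 members. Klrg1 averaged 76.8 ± 55.5 CPM in positive and 4.14 ± 1.997 in negative cells (SD, n = 4), and Izumo1r 211 ± 13.4 and 22.5 ± 3.94 CPM. The 10 highest log2 fold changes among these were those of Klrg1, Ncmap (4.13), Lrrc32, Dgat2 (3.56, an enzyme of triglyceride synthesis), Itgb8, Il10, Gpr55 (2.95), Izumo1r, Il2ra and Ass1 (2.77, argininosuccinate synthase). The lowest included genes of cytotoxic cells: Xcl1 (-5.61) with 4.05 ± 5.35 CPM in positive and 135 ± 21.4 in negative cells, the granzyme Gzmf (-5.26), and the receptors Klri2 (-4.63), Klrc1 (-4.13), Klrc2 (-3.79) and Il12rb2 (-3.53). Gldc (-4.37), Tmem163 (-4.16) and Slc16a11 (-3.54) were also among them, and Prss2 had 0 UMIs in positive cells.

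Over the T lineage as a whole, 3 of the 8 members were called higher on the high-fat than on the low-fat diet by edgeR's quasi-likelihood test in an additive model of diet and tumour line: Icos, Itgb8 and Foxp3. Of all 10891 genes tested 1.14% were called, 0.643% as higher and 0.496% as lower. The members' median log2 fold change was 0.73 and that of all genes -0.0017. In such a sum, more cells with a gene and more RNA per cell cannot be told apart. With 4 libraries the model has 1 residual degree of freedom, which counts any difference between the pairs of libraries as error. The test takes part of its spread from other genes, so an SE can be narrower than the gap between a gene's pairs. The p-values cover these samples alone, since the labels name no separate animals. Fits with a library left out hold the tested factor alone, so they differ from this model in more than their samples.

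Icos was called with nearly the same ratio in both pairs of libraries. It was at 183 and 174 CPM in HFD_shYap and HFD_WT, against 84.6 and 83.5 CPM in LFD_shYap and LFD_WT, and the diets did not overlap (23.5% of all genes had both HFD above both LFD libraries). Its log2 fold change was 1.02 (SE 0.18, adjusted p = 0.000267, edgeR), at 1.11 (0.95 to 1.28) in the shYap pair and 1.06 (0.87 to 1.26) in the WT pair. Cells with an Icos UMI were 51.4%, 43.3%, 29.5% and 23.3% of the T lineage in HFD_shYap, HFD_WT, LFD_shYap and LFD_WT, and 27.4%, 27.5%, 17.9% and 14.95% at 2000 UMIs per cell. The call was lost with LFD_shYap moved to the high-fat diet (1.03, adjusted p = 0.451) without LFD_shYap (adjusted p = 0.0629) or LFD_WT (adjusted p = 0.0758), by a strict marker gate (1.42, adjusted p = 0.625) and in sub-cluster 6 alone (0.49, adjusted p = 0.755), 5 of 13 alternative settings. In NK cells the diets overlapped, at 144 and 61.0 CPM on the high-fat diet and 84.1 and 53.9 CPM on the low-fat diet.

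Icos also lay above its low-fat level in T sub-clusters that hold few Foxp3-positive cells; these were not tested one by one. In sub-cluster 5 it had 95.4 and 110 CPM in HFD_shYap and HFD_WT, against 38.2 and 56.0 CPM in LFD_shYap and LFD_WT. In sub-cluster 1 it had 90.4 and 101 CPM, against 51.5 and 45.6 CPM on the low-fat diet. In T cells with Cd8 and no Cd4 UMIs the values were 113 and 121 CPM, against 55.3 and 46.1 CPM. In T cells with Cd4 and no Cd8 UMIs they were 360 and 405 CPM, against 429 and 190 CPM, so that the diets overlapped and LFD_shYap, with 27 such cells, was highest. The naive or memory-like sub-cluster 4 had 80.0 and 108 CPM, against 84.4 and 81.0 CPM, which overlap. The sub-cluster with high Icos and no Foxp3, sub-cluster 7, was 14.6% and 6.17% of T cells on the high-fat and 2.92% and 2.64% on the low-fat diet.

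Foxp3 over the T lineage was at 26.4 and 20.6 CPM in HFD_shYap and HFD_WT, against 4.92 and 19.1 CPM in LFD_shYap and LFD_WT. Both HFD libraries lie above both LFD libraries, an order that 23.5% of all genes had. HFD_WT and LFD_WT lie close together, and LFD_shYap is far below the other libraries. Its log2 fold change was 1.05 (SE 0.28, adjusted p = 0.0409, edgeR), at 2.42 (1.78 to 3.13) in the shYap pair and 0.11 (-0.33 to 0.57) in the WT pair. With diet alone in the model it was 0.82 without HFD_shYap, 1.12 without HFD_WT, 0.24 without LFD_shYap and 2.18 without LFD_WT. With LFD_shYap moved to the high-fat diet it was 0.08. Among these fits Foxp3 was called only without LFD_WT. DESeq2 did not call it (1.19, adjusted p = 0.9999). The Foxp3 call was lost in 8 of 12 alternative settings. Itgb8 had 12.2 and 10.8 CPM on the high-fat diet, against 3.13 and 6.36 CPM on the low-fat diet (1.27, SE 0.32, adjusted p = 0.023), and lost its call in 10 of 12 alternative settings. Among these were DESeq2 (1.29, adjusted p = 0.9999) and leaving out HFD_shYap (1.195, adjusted p = 0.304), HFD_WT (1.32, adjusted p = 0.099) or LFD_shYap (0.79, adjusted p = 0.728). The other 5 members did not pass: Il2ra was at 0.69 (adjusted p = 0.216), Lrrc32 at 0.76 (0.381), Tnfrsf4 at 0.45 (0.347), Tnfrsf18 at 0.24 (0.798) and Ikzf2 at -0.04 (0.994). Il2ra was called without HFD_WT (1.03, adjusted p = 0.0182), without LFD_WT (1.14, adjusted p = 0.03) and with a looser marker gate (0.82, adjusted p = 0.0236), and Lrrc32 without LFD_WT (1.52, adjusted p = 0.0381).

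**Figure D5:**
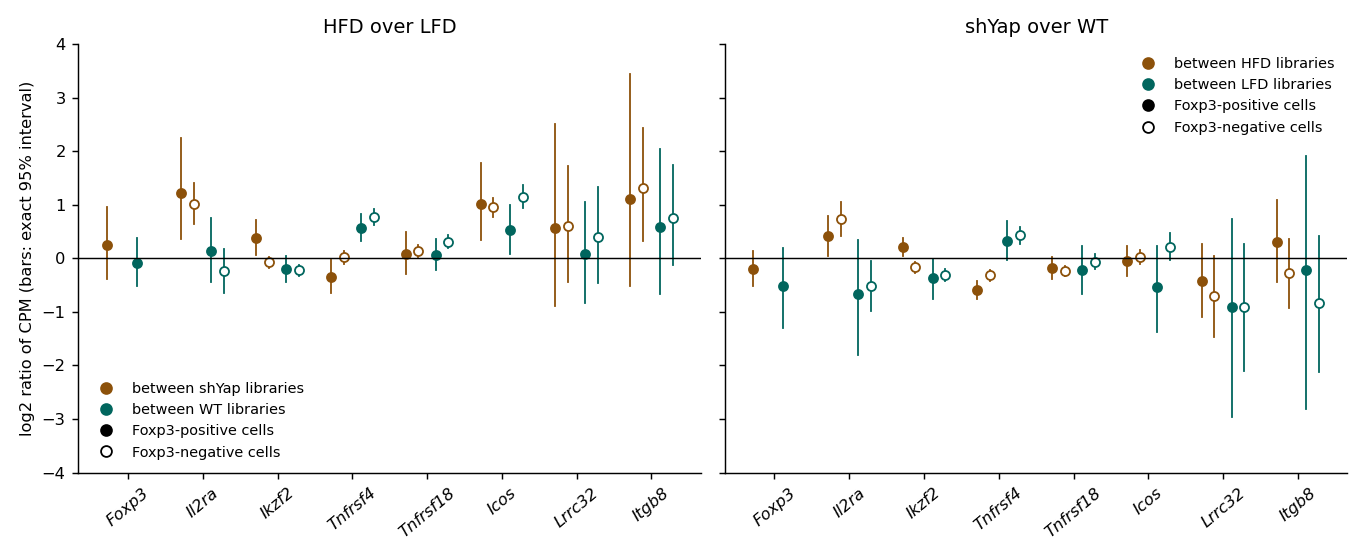
Log2 ratios of CPM with exact 95% intervals for each member, high-fat over low-fat diet on the left and shYap over WT on the right, in Foxp3-positive (filled) and Foxp3-negative (open) T lineage cells. Brown marks the shYap pair (left) or the HFD pair (right) and green the WT or the LFD pair; Icos in negative cells is above 0 for diet in both pairs (0.95 and 1.15).

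Within Foxp3-positive cells, 0 of the 7 other members were called for diet by edgeR, and 1 had an unadjusted p under 0.05. The test called 27 of 4051 genes (0.667%), 0.444% as higher and 0.222% as lower, and 242 genes had an unadjusted p under 0.05. DESeq2 called 0 there, with 38 genes at an unadjusted p under 0.05. On simulated counts of this size edgeR recovered 91% of 4-fold and 44% of 2-fold changes, so a 2-fold difference was often not detectable at this depth. Changes were simulated only in genes above a set mean count, with the same spread for every gene and no tumour line effect. Recovery for members with few UMIs, such as Itgb8 with 3 in LFD_shYap and 7 in LFD_WT, was not measured. Icos was at 432 and 447 CPM on the high-fat diet, against 214 and 310 CPM on the low-fat diet, and so lay without overlap, as did 19.8% of all genes in that direction (0.69, SE 0.27, adjusted p = 0.429, edgeR). Il2ra was at 0.54 (adjusted p = 0.924) and Itgb8 at 0.75 (adjusted p = 0.982). The members' median was 0.20 and that of all genes -0.02. Of the genes that were called, Gzmb, a cytotoxic granule protease, had 310 and 403 CPM on the high-fat and 112 and 113 CPM on the low-fat diet (1.65). Ly6c2 (4.28), Csf2rb (2.72), Gpr183 (1.87) and Ms4a4c (1.82) also rose. Ly6c2 had 120 and 64.2 CPM in HFD_shYap and HFD_WT, against 11.2 and 0 in LFD_shYap and LFD_WT. Csf2rb had 50.3 and 88.9 CPM, against 0 and 16.9. In these cells 3 UMIs make 33.7 CPM in LFD_shYap and 16.9 in LFD_WT, so both fold changes rest on very few low-fat UMIs. Ly6c2 is also a leading gene of phagocyte cluster 3. The chemokines Ccl3 (-2.66), Cxcl10 (-2.19), Ccl4 (-1.93) and Cxcl2 (-1.42) and the interferon gene Rsad2 (-1.83) fell. Cxcl10 had 87.7 and 81.5 CPM in HFD_shYap and HFD_WT, against 236 and 541 CPM in LFD_shYap and LFD_WT. Cxcl2 rests on LFD_WT, with 55.2 and 131 CPM in HFD_shYap and HFD_WT, against 45.0 CPM in LFD_shYap, which is below both, and 502 CPM in LFD_WT. Phagocyte marker sums in these cells were 4385 and 5530 CPM on the high-fat and 3394 and 5638 CPM on the low-fat diet. The part of phagocyte RNA in the chemokine and Ly6c2 values was not tested. Among the further lists Ccr7, a homing receptor, fell by 1.14 (adjusted p = 0.0405).

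Within Foxp3-negative cells Icos was the member called for diet, 1 of 7, where of 10786 genes 1.42% were called, 0.732% as higher and 0.686% as lower. It had 159 and 157 CPM in HFD_shYap and HFD_WT, against 82.0 and 70.7 CPM in LFD_shYap and LFD_WT, without overlap (22.4% of all genes had both HFD above both LFD libraries). Its log2 fold change was 0.99 (SE 0.19, adjusted p = 3.1e-05, edgeR), at 0.95 (0.78 to 1.13) in the shYap and 1.15 (0.94 to 1.37) in the WT pair; it lost its call in 6 of 11 alternative settings, with log2 fold changes of 0.89 to 1.12 over all 11. Each library left out was among them, with adjusted p of 0.113 without HFD_shYap, 0.061 without HFD_WT, 0.0545 without LFD_shYap and 0.318 without LFD_WT. Il2ra differed between the pairs, at 1.01 (0.63 to 1.40) in the shYap pair and -0.24 (-0.65 to 0.17) in the WT pair, and did not pass over both (0.35, adjusted p = 0.749). Tnfrsf4 had 210, 262, 207 and 154 CPM, with a log2 ratio of 0.76 (0.62 to 0.91) in the WT pair and 0.02 (-0.10 to 0.14) in the shYap pair.

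Few genes of the 6 lists were called for diet, and those reported here are as follows. Over the T lineage Il2 (2.38, adjusted p = 0.00489), Ctla4 (0.86, adjusted p = 0.0025) and Klrg1 (1.69, adjusted p = 0.000457, edgeR) rose, and Lef1 (-0.84), a transcription factor of naive T cells, fell. In Foxp3-negative cells Il2 (2.40), Ctla4 (0.80) and Jak3 (0.84), the kinase of the interleukin 2 receptor, rose, and Lef1 (-0.87) fell. The strongest diet calls in negative cells were Cxcl9 (2.25), Slc17a6 (2.22), Tff1 (2.21), Prss2 (1.95) and Ifitm1 (1.85) among those higher, and Chil3 (-3.10), Lyve1 (-2.39), Saa3 (-1.90), Ccl2 (-1.53) and Ccl7 (-1.50) among those lower. Prss2 rests on HFD_WT, with 1.12, 116, 10.7 and 0.64 CPM in HFD_shYap, HFD_WT, LFD_shYap and LFD_WT. Chil3, Lyve1, Saa3, Ccl2 and Ccl7 are genes of macrophages. Cxcl9, among the higher calls, is the leading gene of mononuclear phagocyte cluster 0. That cluster had 973 and 2209 cells in HFD_shYap and HFD_WT, against 641 and 496 in LFD_shYap and LFD_WT. The phagocyte marker sums in negative cells were 1716 and 2558 CPM on the high-fat and 2221 and 3445 CPM on the low-fat diet. The part of phagocyte RNA in the higher and the lower calls was not tested.

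For tumour line, 0 of the 8 members were called by edgeR over the T lineage, 1 having an unadjusted p under 0.05, where 0.624% of 10891 genes were called (7 or 0.0643% higher and 61 or 0.56% lower) and 703 had an unadjusted p under 0.05. DESeq2 called 0 higher and 17 lower. The members' median log2 fold change was -0.21 and that of all genes 0.0014. Lrrc32 was at -0.70 (adjusted p = 0.608) and Foxp3 at -0.47 (SE 0.27, adjusted p = 0.866). Foxp3 was called lower without HFD_shYap (-1.99), in a fit with tumour line alone that set LFD_shYap against HFD_WT and LFD_WT. No gene of the 6 further lists was called. Foxp3, Il2ra and Tnfrsf4 went in opposite directions in the diet groups. Foxp3 in the library labelled HFD_shYap over HFD_WT was 0.36 (0.03 to 0.69) on the log2 scale, and in LFD_shYap over LFD_WT -1.95 (-2.72 to -1.23). Il2ra was 0.80 (0.56 to 1.04) and -0.81 (-1.22 to -0.39). Tnfrsf4 was -0.27 (-0.36 to -0.18) and 0.20 (0.06 to 0.35). By its treatment label LFD_shYap would differ from LFD_WT in diet as well.

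The genes most like Foxp3 in pattern were mostly ones already named. Over 60 profiles, the T sub-clusters and other cell types of each library, the highest Pearson correlations with Foxp3 of log2(CPM + 10) among 6027 genes reaching 50 CPM were those of Lrrc32 (0.93), Izumo1r (0.84), Klrg1 (0.82), Itgb8 (0.81) and Neb (0.81). Il2ra ranked 7 (0.76), Tnfrsf4 38 (0.61), Ikzf2 50 (0.59), Icos 88 (0.53) and Tnfrsf18 122 (0.51). These profiles share 4 libraries and their depth, so the correlations describe them and carry no test.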

How the data were processed

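The files are 4 matrices of raw counts, whole numbers of UMIs per gene and barcode from 10x 3′ libraries, as deposited by the authors. Per the file headers they were written by Cell Ranger 6.0.0, whereas Cell Ranger 4.0.0 stands in the submitters' processing notes, beside STAR 2.5.1 and the build mm10. The barcode filter was not given in the sources used here.

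Barcodes with at least 200 genes and less than 15% mitochondrial UMIs were kept, and the highest ranked simulated-doublet scores, 0.8% per 1000 barcodes, were removed. This took out 735, 1539, 1120 and 1747 barcodes as doublets in HFD_shYap, HFD_WT, LFD_shYap and LFD_WT. Cells were clustered by Leiden at resolution 1 (2000 variable genes, 30 components, 15 neighbours; T cells with 1000 genes and 20 components; scikit-learn 1.9.0, leidenalg 0.10.2), with the 8 members, Xist, Y-linked and mitochondrial genes left out. This gave 27 clusters and 9 T sub-clusters, named from marker lists only where at least 3 markers were detected and the leading genes did not contradict them. A level is CPM, the gene's UMIs relative to all UMIs of the class, scaled to a common total.

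Counts summed per library and class were tested with edgeR 4.0.16 in R 4.3.3 (TMM, filterByExpr, quasi-likelihood test, Benjamini-Hochberg adjustment over all genes tested, threshold 0.05). Diet and tumour line were fitted together. With a library left out, the tested factor stood alone in the diet and line models, so the other factor was not adjusted for. Foxp3-positive cells and other cell types were compared with the library as a block, because the classes of a library come from the same sample. The SE is the log2 fold change divided by the square root of F and is approximate. Share differences have Newcombe intervals, and ratios of CPM between single libraries exact conditional intervals. The tests were tried on simulated counts. DESeq2 1.42.0 and the other alternatives are in the closing section.

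The members and lists were chosen with earlier results of these data known. Named genes are the members, the genes of the 6 lists, the 10 highest and 10 lowest log2 fold changes between Foxp3-positive and Foxp3-negative cells (at least 20 CPM in the higher class, same direction in 4 libraries), up to 5 highest and 5 lowest for diet within each, and the 5 most like Foxp3. Promoter sequences are from RefSeq. A result of 1 gene of these lists is not reported here.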

Additional observations from a re-analysis of the deposited data

Results flagged for a closer look

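Several values went opposite ways in 2 pairs of libraries under the same contrast. Each pair is 1 library against 1, so the difference between pairs was not tested. The tumour line contrast of the Foxp3-positive share was 2.40 percentage points on the high-fat diet and -3.23 on the low-fat diet. In the same contrast the share of sub-cluster 6 cells with a Foxp3 UMI was 20.2 points and -24.4 points.

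Over the T lineage, the log2 ratio of shYap over WT was 0.36 on the high-fat and -1.95 on the low-fat diet for Foxp3. For Il2ra it was 0.80 and -0.81, and in Foxp3-negative cells 0.73 and -0.52. Tnfrsf4 went the other way, with -0.27 on the high-fat and 0.20 on the low-fat diet, and -0.32 and 0.42 in Foxp3-negative cells. Yap1 was not lower in the Ptprc-low cells of the library labelled HFD_shYap than in those of HFD_WT.

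The diet contrast of Ikzf2 was -0.20 with the WT line and 0.25 with the shYap line on the log2 scale. This pair and the low-fat values above include LFD_shYap, whose diet the labels give in conflicting ways.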

How the results depend on the processing

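The 7 members' calls between Foxp3-positive and Foxp3-negative cells were kept in each left-out library. Counts of genes moved more, and the cause was not tested. DESeq2 gave 22 diet calls over the T lineage against 124 with edgeR, 17 line calls against 68, 0 diet calls in positive cells against 27, 21 in negative cells against 153, and 778 between positive and negative cells against 1522. With LFD_shYap on the high-fat diet these fits gave 31, 16, 1 and 40 calls for diet, line, positive and negative cells, and with the factor alone 12, 0, 5 and 11 (491 genes at an unadjusted p under 0.05 for the 0). Keeping doublets gave 17 line calls. A strict marker gate, which left 82, 13, 10 and 5 T cells, gave 5 diet and 14 line calls, and fits split by Foxp3 could not be made with it. A looser gate, chosen after seeing the data like the next 2 settings, gave 201, 127 and 0 calls for diet, line and diet in positive cells (158 at an unadjusted p under 0.05 for the 0). Leaving out sub-clusters 0 and 8 gave 105 line calls, 4 and 99 diet calls in positive and negative cells, and 1007 between them. Sub-cluster 6 alone gave 0 diet and 0 line calls. Positive against negative cells gave 848 calls with at least 2 Foxp3 UMIs, 433 thinned and 105 among Cd4 cells. With a library left out the counts ran from 57 (HFD_shYap) to 135 (HFD_WT) for diet, 16 (LFD_shYap) to 57 (HFD_WT) for line, and 8 (HFD_shYap) to 40 (LFD_WT) and 5 (HFD_shYap) to 98 (LFD_shYap) for diet in positive and negative cells. They ran from 852 (HFD_shYap, and also HFD_WT) to 1480 (LFD_shYap) between positive and negative cells, and from 1058 (LFD_WT) to 1259 (LFD_shYap) for T against NK cells (1626).

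The positive and negative cells of a library pair by design. With no replicate block the count was 1053 against 1522 with it. Among the member genes, the block changed no other call than that of Il2ra against dendritic cells. For diet and line no paired analysis was possible because each combination has a single library. With a library left out, diet or line was fitted without the other factor.

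Share differences in points became 15.4 with the strict gate and -4.28 among Cd4 cells for the WT diet pair; 3.16 thinned, 8.54 with the gate and 16.5 among Cd4 cells for the shYap diet pair; -6.85 with the gate, reversed, for the high-fat line pair; and 0.0 with the gate and -17.6 among Cd4 cells for the low-fat line pair. Log2 ratios of Foxp3 CPM in positive cells became 0.46 with the looser gate (WT diet pair), -0.49 and 0.21 with at least 2 UMIs (shYap diet and low-fat line pairs), and 0.18 thinned and -0.71 with the strict gate (high-fat line pair).

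Members without a call changed sign 35 times. For diet over the T lineage Il2ra was at -0.078 by the treatment label, and Ikzf2 at 0.068 with doublets kept, 0.27 with the strict gate, 0.42 in sub-cluster 6 and -0.25 to 0.17 with a library left out. For line, Il2ra was at -0.015 with DESeq2, Tnfrsf4 at 0.0013 with doublets kept and 0.14 with the gate, Tnfrsf18 at 0.95 with the gate, Icos at -0.40 by the treatment label and Itgb8 at 0.049 with doublets kept. With a library left out the line values ran from -1.99 to 0.33 for Foxp3, -0.75 to 0.71 for Il2ra, -0.42 to 0.31 for Tnfrsf4, -0.60 to 0.63 for Icos and -1.47 to 0.38 for Itgb8. For diet in positive cells doublets kept gave -0.064 for Ikzf2, -0.098 for Tnfrsf4 and -0.016 for Tnfrsf18, the treatment label -0.22 for Ikzf2, and the looser gate -0.0135 for Lrrc32; with a library left out they ran from -0.077 to 0.25, -0.17 to 0.38, -0.0136 to 0.15 and -0.13 to 0.73. In negative cells Il2ra was at -0.27 by the treatment label and -0.012 to 0.67 with a library left out. Against dendritic cells Lrrc32 ran from -0.36 to 0.051, and against fibroblasts Itgb8 was at -0.079 with doublets kept. Depth limits the Foxp3 counts, since 97 of 196 positive cells rest on 1 UMI.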
